A study of Mus musculus with 4 samples.

Results

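The 46 genes described here encode proteases that cut the extracellular matrix and the inhibitors of these proteases. They were taken by gene symbol from the 54842 gene rows of the count table, by a rule that uses no measured value. They comprise 23 matrix metalloproteinases (Mmp with a number and, for some, a letter), 19 ADAMTS proteases (Adamts with a number) and the 4 tissue inhibitors of metalloproteinases Timp1, Timp2, Timp3 and Timp4. All 46 had a row in the table.

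The counts come from total RNA of untreated mouse embryonic fibroblasts (MEF cells), from which ribosomal RNA had been removed before sequencing. There were 2 libraries of wt (wild-type) MEF cells and 2 libraries of Top2β-null MEF cells (genotype Top2beta null in the labels), which were used to ask whether DNA topology takes part in the transcription of major satellite repeats. Top2β is a DNA topoisomerase that relieves supercoils and tangles by passing one DNA duplex through another. The Top2β-null MEF cells were derived from Top2β-null mice and were a gift from other laboratories, so that the origin of the cells and the genotype cannot be told apart in this comparison. The labels do not say whether the libraries of a genotype came from separate cultures, and the p-values measure only the spread between these libraries, which may be technical.

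Matrix metalloproteinases (MMPs) are zinc-dependent endopeptidases that are made as inactive precursors and together cut nearly all proteins of the extracellular matrix. ADAMTS enzymes are secreted relatives with thrombospondin repeats, and among their substrates are proteoglycans, procollagens and microfibril proteins. TIMPs bind to the active site of MMPs and block it, and Timp3 also inhibits ADAMTS aggrecanases. Fibroblasts are a main source of all 3 families in connective tissue.

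Library totals lay between 133116830 and 149647278 counts. Top2b itself was at 18259 and 18465 normalized counts in wt MEF cells and at 3879 and 3789 in the Top2β-null libraries, with a log2 fold change of -2.26 (SE 0.0271, adjusted p = 6.56e-19). Here and below, a normalized count is a count scaled by edgeR's TMM factors to a common library size, a log2 fold change is that of Top2β-null over wt MEF cells, and adjusted p-values come from edgeR's quasi-likelihood test over all 26566 genes and repeat families tested. Of 9 fibroblast markers, Vim, Col1a1 and Col1a2 had at least 112305 normalized counts in all 4 libraries and Lum was at 3.96 or below. The fibroblast markers summed to 872018 and 887929 normalized counts in wt, against 547612 and 552820 in Top2β-null MEF cells, but single markers moved both ways. Of the 8 tested, Dcn (log2 fold change 4.99), Thy1 (2.07), Pdgfrb (1.88) and Pdgfra (1.16) were called higher, against 5.52% of all genes tested. Col1a1 (-1.38) and Col3a1 (-1.01) were called lower, against 5.25%. Vim (-0.84) was lower by the adjusted p of 5.48e-13 alone, and Col1a2 (-0.04) did not pass the test. In such bulk RNA, fewer cells of a type and less RNA per cell cannot be told apart.

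Matrix protease genes differed widely between the genotypes, and they moved in both directions. Of the 46 genes, 30 had enough reads to be tested (at least 10 counts in at least 2 libraries), 5 of them (Mmp3, Mmp10, Mmp13, Adamts16 and Adamts8) only through the genotype in which they were higher. A gene was called when its adjusted p was below 0.05, its log2 fold change was above 1 in size and its mean was above 100 normalized counts. The 8 genes called higher in Top2β-null MEF cells were Mmp2, Mmp16, Mmp19, Adamts1, Adamts4, Adamts7, Adamts9 and Timp1, against 5.52% of all 25085 genes tested. Called lower were the 3 genes Mmp28, Adamts6 and Timp3, against 5.25% of all genes tested. By the adjusted p alone, 16 members were higher, against 32.8% of all genes tested, and 10 were lower, against 33.7%. The median log2 fold change was 0.45 over the 30 tested members, with values of 1.03 for 15 MMP, 0.45 for 12 ADAMTS and -0.0994 for 3 TIMP genes, and it was -0.00578 over all genes tested. These medians include the 5 genes that were tested through 1 genotype only. Over the 12 tested MMP genes outside the cluster on chromosome 9 the median was -0.08. The median over all tested members was between 0.17 and 0.633 with other filters on low counts, and 0.0424 and 0.0225 without the first and the second Top2β-null library, where 26 members could be tested.

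**Figure D1:**
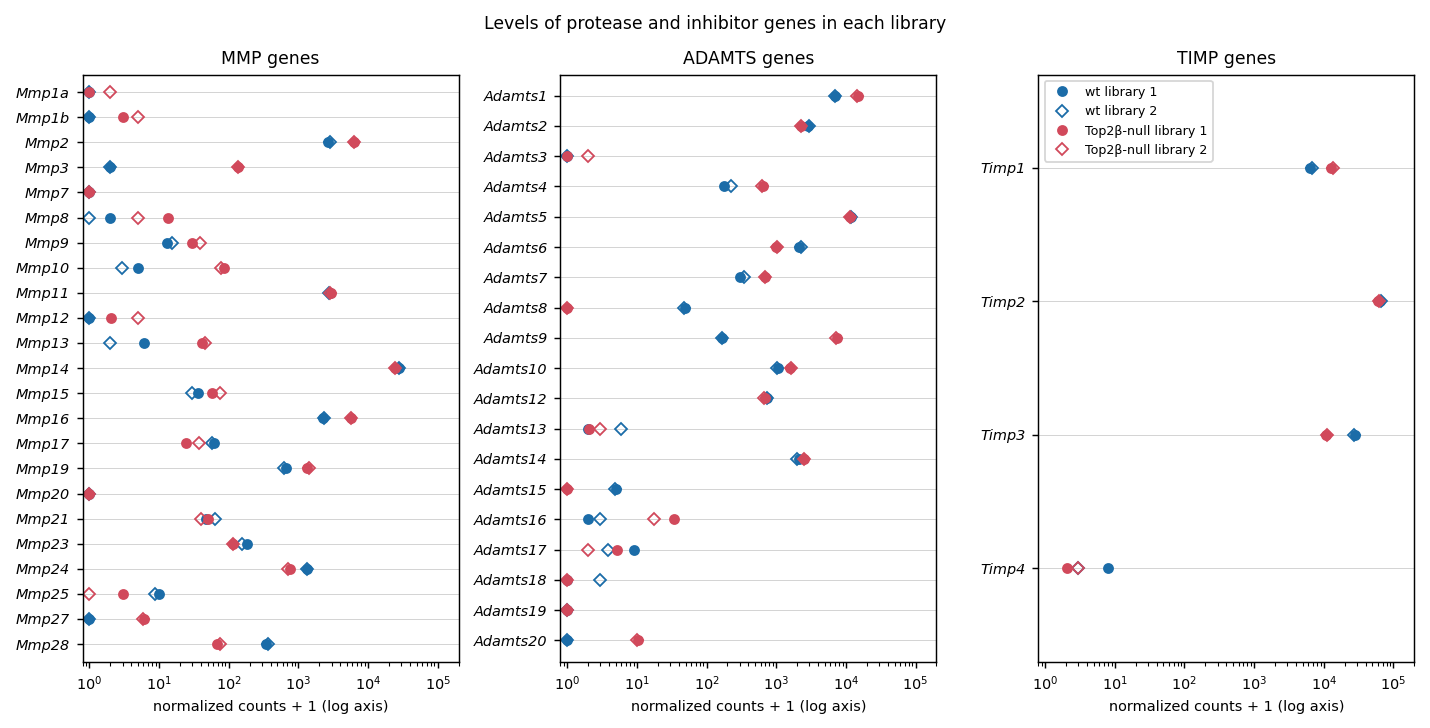
Normalized counts plus 1 (log axis) of every MMP, ADAMTS and TIMP gene in each of the 2 wt libraries (blue) and 2 Top2β-null libraries (red), filled circles for library 1 and open diamonds for library 2. Libraries of a genotype sit close together for abundant genes such as Timp2, the gap between genotypes is wide for Adamts9 and Mmp3, and Mmp7, Mmp20 and Adamts19 are at 0 counts in all 4 libraries.

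Timp2 and Timp1 were the most abundant members per kb of exon, and among the inhibitors Timp1 was called higher and Timp3 lower. Timp1 (chrX:20870166-20874735 on GRCm38), an inhibitor of many MMPs, had 6274 and 6721 normalized counts in wt libraries, against 12908 and 13592 in those of Top2β-null MEF cells. Both Top2β-null libraries lay above both wt libraries, and Timp1 rose by a log2 fold change of 1.03 (SE 0.0337, adjusted p = 1.53e-13). This value was 0.965 when the first wt library was left out, just under the cut-off of 1.

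Timp3 (chr10:86300372-86349506), which binds to the matrix and also inhibits ADAMTS aggrecanases, had 27710 and 27275 normalized counts in wt libraries, against 10923 and 11072 in those of Top2β-null MEF cells. The groups were far apart compared with the replicates, and Timp3 fell by 1.32 on the log2 scale (SE 0.025, adjusted p = 1.51e-16). Timp3 lies inside Syn3, which runs on the opposite strand and shares 1733 bp of exon with it. Syn3 had 6296, 6104, 2544 and 2701 normalized counts in the wt and then the Top2β-null libraries, and since the strand setting used for counting is not stated, reads of the pair may not be separated.

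Timp2 (chr11:118301069-118355740), which besides its inhibitory role takes part in the activation of the Mmp2 precursor by Mmp14, had 64897 and 66026 normalized counts in wt, against 60457 and 61744 in Top2β-null MEF cells. Its groups did not overlap but were only 1.07-fold apart (log2 fold change -0.10, SE 0.0267, adjusted p = 3.88e-03). With scaling to the total count the value was -0.0296 (adjusted p = 0.373), so that the decrease of Timp2 rests on the scaling, and it was -0.0452 (adjusted p = 0.169) without the first Top2β-null library. Timp4 had 7, 2, 1 and 2 counts in the 4 libraries and was not tested.

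Divided by exon length, Timp2 had 16802 ± 205 normalized counts per kb (SD, n = 2) in wt MEF cells and Timp1 had 7317 ± 355.8 (SD, n = 2). For the Top2β-null MEF cells, Timp2 had a level of 15683 ± 233.5 and Timp1 one of 14921 ± 544.7 (SD, n = 2). Timp2 stayed above Timp1 in every library, while their distance in Top2β-null MEF cells was small compared with that in wt MEF cells. As a share of the summed TIMP level per kb, Timp1 went from 26.6% to 46.7%, Timp2 from 61.1% to 49.1% and Timp3 from 12.3% to 4.23% (means of 2 libraries).

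Among the membrane-type MMPs, which are anchored at the cell surface, Mmp14 dominated and Mmp16 showed a large difference. Mmp14 (chr14:54431612-54445364), a collagenase of the cell surface that activates the Mmp2 precursor, had 27928 and 28196 normalized counts in wt libraries, against 24215 and 24497 in those of Top2β-null MEF cells. Both Top2β-null libraries were lower, by 0.20 on the log2 scale (log2 fold change -0.20, SE 0.0245, adjusted p = 1.85e-06).

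Mmp16 (chr4:17852893-18119145), a transmembrane MMP that can likewise activate the Mmp2 precursor, had 2250 and 2350 normalized counts in wt, against 5699 and 5681 in Top2β-null MEF cells. The genotypes were clearly separated, with a log2 fold change of 1.31 (SE 0.0356, adjusted p = 1.40e-14). Mmp24 (chr2:155775342-155818366), another transmembrane type known from neural tissue, had 1322 and 1336 normalized counts in wt, against 768.5 and 710.1 in Top2β-null MEF cells. It fell by 0.85 on the log2 scale (SE 0.0584, adjusted p = 2.14e-09), and the overlapping opposite-strand gene BC029722 (637 bp of shared exon) had a log2 fold change of -0.78.

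The other 3 membrane-type genes were at low levels. Mmp15 (35.3 and 29.0 normalized counts in wt, against 55.9 and 75.3 in Top2β-null MEF cells) had a log2 fold change of 1.03 (adjusted p = 2.95e-03). For Mmp17, a member with a glycolipid anchor, the value was -0.95 (adjusted p = 6.92e-03), and it was -0.64 with an adjusted p of 0.0918 when the first Top2β-null library was left out. Mmp25, the other member with such an anchor, had 9, 8, 2 and 0 counts and was not tested.

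The gelatinase Mmp2 was among the higher genes. Mmp2 (chr8:92827291-92853420), which degrades denatured collagen and basement membrane collagen, had 2711 and 2876 normalized counts in wt libraries, against 6315 and 6380 in those of Top2β-null MEF cells. It was 2.27-fold higher in Top2β-null MEF cells (log2 fold change 1.18, SE 0.0348, adjusted p = 3.76e-14).

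Mmp9, the second gelatinase, was a weakly expressed gene with 12, 15, 28 and 38 counts in the 4 libraries (log2 fold change 1.32, SE 0.363, adjusted p = 4.71e-03). Mmp9, Mmp8 and Mmp12 are also made by neutrophils and macrophages. Of 10 markers of these cells, Adgre1, Tyrobp and S100a9 had no count in any library and Ptprc had at most 6.76 normalized counts. The 10 markers summed to 2426 and 2505 normalized counts in wt, against 1359 and 1355 in Top2β-null MEF cells, and Cd68 alone had the lower level among the 4 tested (log2 fold change -2.49). Csf1r (0.36), Fcer1g (0.74) and Itgam (1 count in each wt library, 28.0 and 28.7 normalized counts in the Top2β-null libraries) were higher by the adjusted p, and their part in the Mmp8 and Mmp9 values was not tested.

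Mmp11, stromelysin-3, which is typical of stromal fibroblasts, had 2854 and 2762 normalized counts in wt, against 2907 and 2882 in Top2β-null MEF cells. Its log2 fold change of 0.04 (SE 0.0395) did not pass the test (adjusted p = 0.349). With scaling to the total count it was 0.114 (adjusted p = 0.0207).

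Of the remaining MMPs outside the cluster on chromosome 9, Mmp19 was called higher and Mmp28 was called lower. Mmp19 (chr10:128790910-128800824), a widely expressed protease of basement membrane proteins, had 668.2 and 623 normalized counts in wt, against 1331 and 1421 in Top2β-null MEF cells. The libraries of the genotypes did not overlap, and the log2 fold change was 1.09 (SE 0.0614, adjusted p = 1.56e-10). Tmem198b, which shares 789 bp of exon on the opposite strand, had a log2 fold change of -0.68.

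Mmp28, or epilysin (chr11:83440768-83463071), had 341.1 and 372.8 normalized counts in wt, against 67.3 and 75.3 in Top2β-null MEF cells. This was a 5.00-fold lower level (log2 fold change -2.32, SE 0.134, adjusted p = 2.20e-10), the largest decrease among the called members. The opposite-strand gene 1700020L24Rik, with 466 bp of shared exon, had a log2 fold change of -3.13. Mmp23 (183.7, 156.5, 112.9 and 114.9 normalized counts in the wt and then the Top2β-null libraries) had a log2 fold change of -0.58 (adjusted p = 3.21e-03). Mmp21 did not pass the test and its groups overlapped (46.4 and 61.8 normalized counts in wt, against 49.7 and 38.6 in Top2β-null MEF cells, adjusted p = 0.336).

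**Figure D2:**
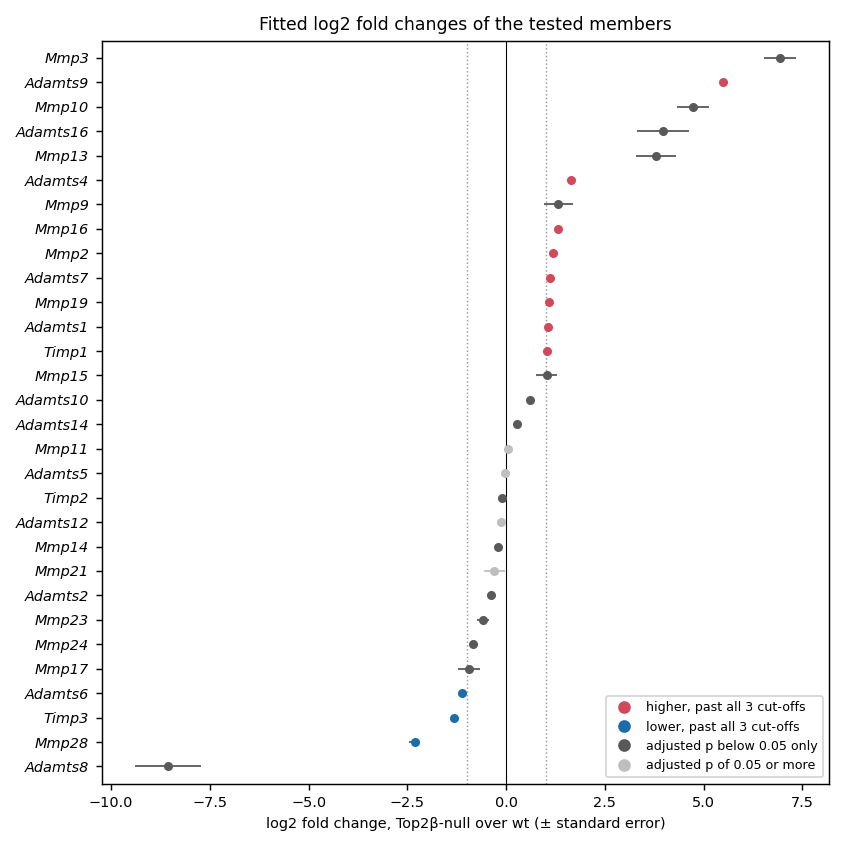
Fitted log2 fold change of Top2β-null over wt MEF cells, with its standard error, for the 30 tested members, with dotted lines at the cut-off of 1 and colours for the call. The values of Mmp3, Adamts16 and Adamts8 are set against groups with 0 to 3 counts and depend on the prior count of the fit, and among the called genes Adamts9 at 5.50 and Mmp28 at -2.32 lie farthest from 0.

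A row of 10 Mmp genes lies on chromosome 9 within 427 kb (chr9:7272514-7699585), in the order Mmp13, Mmp12, Mmp1b, Mmp3, Mmp1a, Mmp10, Mmp8, Mmp27, Mmp20 and Mmp7, with no other protein-coding gene between neighbours. The cluster holds the collagenases Mmp13, Mmp8, Mmp1a and Mmp1b, the stromelysins Mmp3 and Mmp10, the macrophage elastase Mmp12, the tooth enamel protease Mmp20, the matrilysin Mmp7 and Mmp27. It was nearly silent in wt MEF cells, with a sum of 11 and 4 counts per library, and it had a sum of 273 and 279 counts in the Top2β-null libraries.

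Promoter windows from RefSeq (GRCm38.p6, 250 bases before to 50 after a transcript start) were found for 32 of the 46 members. They were searched on both strands for TGACTCA, the core site of the transcription factor AP-1, which in other cells is a well-known regulator of collagenase and stromelysin genes. The stretches of 4 cluster genes are printed because they hold this motif close to the start, in the 3 genes with the most counts in Top2β-null MEF cells and in Mmp7, which had none. They read 5′ to 3′ on the strand of the gene, and the capitals mark the motif, which stands as its reverse complement TGAGTCA in 3 of the 4.
Mmp3, chr9:7445746-7445812, plus strand: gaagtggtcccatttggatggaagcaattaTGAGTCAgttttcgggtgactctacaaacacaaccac
Mmp10, chr9:7502249-7502315, plus strand: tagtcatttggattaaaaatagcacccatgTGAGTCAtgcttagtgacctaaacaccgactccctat
Mmp13, chr9:7272449-7272513, plus strand: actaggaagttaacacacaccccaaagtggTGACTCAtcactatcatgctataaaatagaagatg
Mmp7, chr9:7691997-7692063, plus strand: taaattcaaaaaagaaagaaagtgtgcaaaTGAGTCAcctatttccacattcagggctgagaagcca

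The motif began 46 bases before the start of Mmp3, 63 before that of Mmp10, 35 before that of Mmp13 and 63 before that of Mmp7. It was also found in the windows of Mmp12, Mmp1a and Mmp1b, so that 7 of the 10 cluster genes held it and no other member with a window did. Of the 35 windows of the members 20% held the motif, against 5.2% of all 32851 windows of the same length. The letters TATAAA, the core of a common promoter box, were found on either strand in 9 of the 10 cluster genes and in 31.4% of the members' windows, against 13.6% of all windows. In no window did a match of one motif overlap a match of the other. A match is a description of the letters only, and binding of a factor was not measured here.

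Mmp3, stromelysin-1, had 1 and 1 counts in the wt libraries and 131 and 138 counts in the Top2β-null libraries. The ratio of the scaled counts was 138, with a 95% exact binomial interval from 37.8 to 1150 that covers counting error only (adjusted p = 2.64e-10). Mmp10, stromelysin-2, had 4 and 2 counts in wt, against 83 and 78 counts in Top2β-null MEF cells, giving a log2 fold change of 4.73 (SE 0.403, adjusted p = 3.07e-08). For Mmp13, the collagenase that also marks hypertrophic cartilage and bone, the counts were 5 and 1 in wt, against 39 and 45 in Top2β-null MEF cells, giving a log2 fold change of 3.79 (SE 0.506, adjusted p = 6.37e-06). The Mmp13 value rests on 6 counts in wt and was 5.28 without the first and 3.03 without the second wt library.

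These 3 genes were the tested members of the cluster, none reached a mean of 100 normalized counts, and each had passed the filter through the Top2β-null libraries alone. Of 9 cartilage and bone markers, Ibsp had no count, and Sp7 had 5 counts in each wt library and none in the Top2β-null libraries. Of the 5 tested, 2 were higher and 1 lower by the adjusted p, against 32.8% and 33.7% of all genes tested. Col2a1 went from 8.07 and 9.66 normalized counts in wt to 165.7 and 166.4 in Top2β-null MEF cells. Bglap fell from 18.2 and 19.3 to 3.11 and 2.97 (log2 fold change -2.58, adjusted p = 4.66e-04). Col10a1 did not pass the test (log2 fold change -0.19, adjusted p = 0.102). The 9 markers summed to 4775 and 4870 normalized counts in wt, against 5361 and 5491 in Top2β-null MEF cells, mainly from Sox9. The part of such cells in the Mmp13 counts was not tested.

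The remaining 7 genes of the cluster were too low to be tested. Mmp8, a collagenase named after neutrophils, had 1, 0, 12 and 4 counts, so that the Top2β-null libraries differed 3-fold between themselves. Mmp27 had 0, 0, 5 and 5 counts. Set against a floor of 3 counts over both wt libraries, it was 3.42-fold higher in Top2β-null MEF cells. Such a value leaves out the counting error of the higher group. Against the same floor Mmp1b, with 0, 0, 2 and 4 counts, was 2.05-fold higher and Mmp12, with 0, 0, 1 and 4 counts, 1.71-fold higher.

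Mmp1a and Mmp1b are close copies of each other, so that reads may have been shared between them, and Mmp12 and Mmp1b overlap by 157 bp of exon on opposite strands. Mmp1a had 1 count in 1 Top2β-null library. Mmp7 and Mmp20 had no count in any library.

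**Figure D3:**
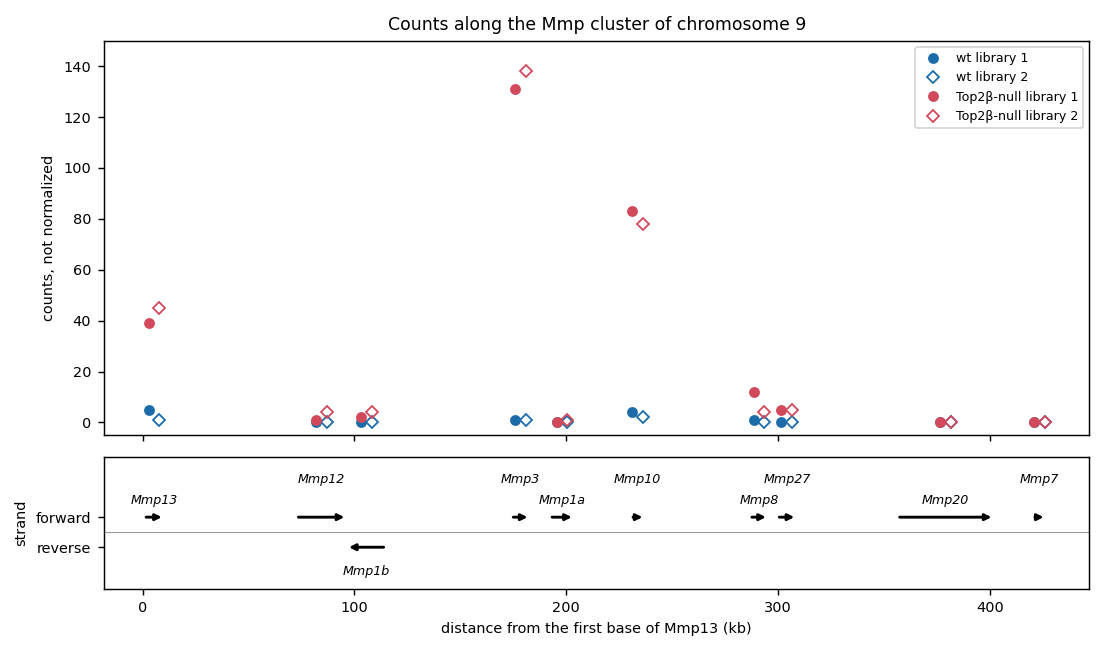
Raw counts (linear axis) of the 10 cluster genes in the 4 libraries, plotted at the distance in kb from the first base of Mmp13, with library 2 drawn slightly to the right and the genes and their strands below. Counts above 20 are seen for Mmp13, Mmp3 and Mmp10 in the Top2β-null libraries, and no gene exceeds 5 counts in a wt library.

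Within 1 Mb on either side of the cluster, 14 genes that are no members were tested, of which 3 were called higher and 2 lower, against 5.52% and 5.25% of all genes tested. By the adjusted p alone 9 were higher and 3 lower, against 32.8% and 33.7%. Those called higher included Birc3, an inhibitor of apoptosis, with a log2 fold change of 4.21 (adjusted p = 2.55e-14), and Dync2h1, a dynein of cilia, with 1.04 (adjusted p = 1.17e-13). Pdgfd, a growth factor gene, was called lower (adjusted p = 1.43e-11), and these 3 genes were picked out after their values had been seen. The median over the 14 genes was 0.37.

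Of the 7 ADAMTS genes known or thought to cut proteoglycans such as versican and aggrecan, 5 were tested and 3 were called higher, against 5.52% of all genes tested. The largest difference of any called member was that of Adamts9 (chr6:92772699-92943492), a versican-cleaving protease of development. Adamts9 had 164.5 and 163.2 normalized counts in wt libraries, against 7586 and 7289 in those of Top2β-null MEF cells. It rose 45.4-fold, with a log2 fold change of 5.50 (SE 0.0533, adjusted p = 6.56e-20), and values under all alternatives lay between 5.48 and 5.57.

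Genes on the opposite strand of Adamts9 also had large log2 fold changes. A730049H05Rik, with 1381 bp of shared exon, had 14.1 and 16.4 normalized counts in wt, against 513.7 and 432.8 in Top2β-null MEF cells. Gm15737, with 424 bp of shared exon, went from 12.1 and 8.69 to 604.8 and 576.4 normalized counts. 9530026P05Rik, which shares no exon sequence with Adamts9, had a log2 fold change of 5.49 (adjusted p = 1.71e-09). The library kit marks the strand, but how the strand was used in counting is not stated, so reads of Adamts9 and of the first 2 of these genes may not be separated.

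Adamts1 and Adamts5 are neighbours on chromosome 16, 53.1 kb apart with no coding gene between them, and both act on aggrecan and versican. Adamts1 (chr16:85793827-85803113) had 7054 and 7094 normalized counts in wt, against 14791 and 14689 in Top2β-null MEF cells, a log2 fold change of 1.06 (SE 0.025, adjusted p = 2.39e-15). Adamts5 (chr16:85856173-85901828) had 11784 and 11883 in wt, against 11489 and 11580 in Top2β-null MEF cells, giving a log2 fold change of -0.04 (SE 0.0245, adjusted p = 0.202). Adamts1 was thus 2.08-fold higher while its neighbour did not pass the test, and the sign of the Adamts5 value depended on the scaling (0.0329 with total counts).

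Adamts4 (chr1:171250421-171260637), an aggrecanase, had 178.6 and 225.1 normalized counts in wt, against 644.2 and 615.1 in Top2β-null MEF cells. The wt libraries differed more between themselves than the Top2β-null libraries did, but all lay well below them, and the log2 fold change was 1.64 (SE 0.0991, adjusted p = 4.00e-10).

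The neighbours Adamts8 and Adamts15, 20.1 kb apart on chromosome 9, showed the opposite direction at low counts. Adamts8 had 47 and 48 counts in the wt libraries and none in either Top2β-null library. It was 30.9-fold lower when set against a floor of 3 counts over both Top2β-null libraries. The overlapping opposite-strand gene Gm29724 had 51.5, 58.9, 26.9 and 31.7 normalized counts. Adamts15 had 4, 4, 0 and 0 counts and was 2.60-fold lower when set against the same floor. Adamts20, a versican-cleaving protease of melanoblast and palate development, had 0, 0, 9 and 9 counts. It was 6.15-fold higher when set against a floor of 3 counts over both wt libraries.

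Procollagen N-proteinases, which trim the amino-terminal propeptide of fibrillar collagens, changed little. Adamts2 (chr11:50602084-50807573) had 2860 and 2985 normalized counts in wt, against 2274 and 2235 in Top2β-null MEF cells, and it fell by 0.37 on the log2 scale (SE 0.0419, adjusted p = 8.27e-07). Adamts14 (chr10:61197112-61273438) had 2124 and 1974 in wt, against 2494 and 2491 in Top2β-null MEF cells, giving a log2 fold change of 0.28 (SE 0.0462, adjusted p = 5.27e-05). These 2 enzymes of similar function moved in opposite directions by less than 1.5-fold. Adamts3, the third of the kind, had a single count in 1 Top2β-null library.

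Adamts7 and Adamts12 are known to cut cartilage oligomeric matrix protein. Adamts7 (chr9:90163069-90208071) had 298.8 and 343.9 normalized counts in wt, against 686.7 and 700.2 in Top2β-null MEF cells. It was called higher with a log2 fold change of 1.11 (SE 0.081, adjusted p = 4.45e-09), which was 0.997 without the first wt library. Adamts12 had 742.9 and 736 in wt, against 681.5 and 664.6 in Top2β-null MEF cells and did not pass the test (log2 fold change -0.14, SE 0.0626, adjusted p = 0.0693).

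Of the 4 ADAMTS genes linked to fibrillin microfibrils, Adamts6 and Adamts10 were well expressed and moved apart. Adamts6 (chr13:104287835-104496695) had 2157 and 2235 normalized counts in wt, against 1007 and 1018 in Top2β-null MEF cells. Its decrease of 1.12 on the log2 scale (log2 fold change -1.12, SE 0.0494, adjusted p = 7.00e-12) was more than the spread of either pair. Adamts10 (chr17:33524204-33553782) had 1049 and 1032 in wt, against 1578 and 1609 in Top2β-null MEF cells, giving a log2 fold change of 0.62 (SE 0.0511, adjusted p = 2.19e-08).

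Adamts17 had 8, 3, 4 and 1 counts with overlapping groups, and Adamts19 had none. Adamts13, the plasma protease of von Willebrand factor, had between 1 and 5 counts per library. Adamts16 had 1 and 2 counts in wt, against 32 and 17 counts in Top2β-null MEF cells, a ratio of 16.8 with a counting interval from 5.41 to 84.0 (adjusted p = 6.25e-05). Adamts18 had 2 counts in 1 wt library.

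Composition of the families per kb of exon shifted accordingly. Mmp14 made up 62.9% of the summed MMP level in wt, against 48.2% in Top2β-null MEF cells, while Mmp2 went from 11.1% to 22.2%, Mmp16 from 3.54% to 7.75% and Mmp19 from 2.44% to 4.60% (means of 2 libraries). The 10 cluster genes added little to this sum, as Mmp3, the highest of them, reached 0.892%. Among the ADAMTS genes, Adamts1 went from 35.8% to 48.8%, Adamts5 from 29.4% to 18.8% and Adamts6 from 7.55% to 2.28%. Adamts9 went from 0.292% to 8.68%, from rank 22 to rank 10 of all members by level per kb. Libraries of the same genotype gave nearly the same shares, with 8.82% and 8.53% for Adamts9 in the Top2β-null libraries.

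**Figure D4:**
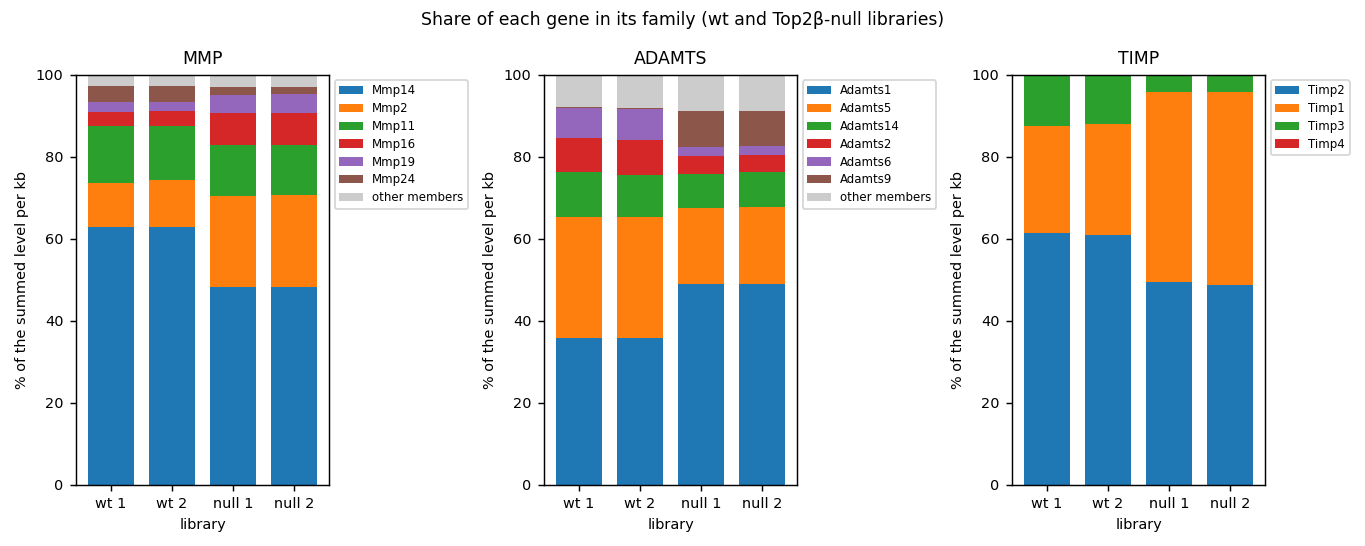
Share in % of each gene in the summed level per kb of its family, stacked by library, for the MMP, ADAMTS and TIMP genes, with the less abundant members joined in grey. The share of Mmp14 is lower and that of Mmp2 higher in both Top2β-null libraries, Adamts9 appears as a band of 8.68% on average, and Timp1 comes close to Timp2.

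Proteases and inhibitors were also set against each other within each library, which needs no scaling between libraries. The summed MMP level per kb was 7458 and 7519 normalized counts per kb in the wt libraries, against 8437 and 8508 in those of Top2β-null MEF cells. The summed TIMP level was 27125 and 27864 in wt, against 31395 and 32514 in Top2β-null MEF cells, so that both sums were higher per kb in the latter. Without division by exon length, the TIMP sum was lower in them (98888 and 100024 normalized counts in wt, against 84289 and 86410). Their log2 ratio was -1.88 ± 0.0192 (SD, n = 2) for wt libraries and -1.92 ± 0.0272 (SD, n = 2) for Top2β-null libraries.

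The difference of -0.0388 in this log2 ratio was of the order of the spread between replicates (pooled SD 0.0235). A 2-sided exact permutation test gave p = 0.33, the smallest value that 2 libraries against 2 can give. The sign of the difference depended on how the genes were summed. Without division by exon length it was 0.343, and without Mmp14 and Timp2, the most abundant gene of each family, it was 0.052.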

How the data were processed

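The 46 members follow a symbol rule that uses no value, but the choice of these families, the role groups and the related gene lists was made with earlier results of these data known. According to the methods, the authors trimmed paired-end reads, aligned them to mm10 with STAR and ran TEtranscripts on Gencode genes plus repeat families, and they deposited whole-number counts per gene without normalization. The mode and strand setting of TEtranscripts are not given in the sources used here. Members of multigene families can share reads.

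Genes and repeats reaching 10 counts in 2 or more libraries were tested together in edgeR 4.0.16 (R 4.3.3, limma 3.58.1) with TMM factors, a quasi-likelihood model of genotype and Benjamini-Hochberg adjustment. The call cut-offs (adjusted p below 0.05, log2 fold change above 1 in size, mean above 100 normalized counts) are those of the methods, which used DESeq2. The standard error is the log2 fold change in size divided by the square root of F. The fit was tested on simulated data. Of 54842 gene identifiers, 54495 matched GENCODE release M21 (GRCm38), which gave symbols, positions and exon lengths; the authors used an earlier release. Named with all values were the TIMP genes, the called members and members with a mean above 1000 normalized counts; the others were named within small groups. Related genes were named when called or above 10000 normalized counts.

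Alternatives were DESeq2 1.42.0, other scalings, other filters, adjusted p alone, a replicate block, leaving out each library, and, for the ratio of MMP to TIMP, other sums. Counts of the 2 libraries of a genotype were farther apart than sampling noise (chi-square over degrees of freedom 3.65 for wt, 5.07 for Top2β-null libraries). Intervals cover counting error only. Values set against a floor leave out the counting error of the higher group and are no lower bounds. Genistein-treated cells are not analysed here. Values of some related and overlapping genes are not reported here.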

Additional observations from a re-analysis of the deposited data

How the results depend on the processing

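The 11 calls rest on 2 libraries per genotype, and genes under about 10 counts could not be tested at this depth. DESeq2 and the replicate block each gave 8 members called higher and 3 lower, and medians of 0.457 and 0.45. Same-numbered libraries did not deviate together (correlation 0.0197 over 17952 features), so they share only a number. With the adjusted p as the only cut-off, 16 members were higher and 10 lower. Requiring 100 counts in every library left Mmp28 untested. Without the first wt library, 6 members were called higher, since Timp1 (0.965) and Adamts7 (0.997) fell under the cut-off of 1.

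The median log2 fold change of 0.449 over the tested members was 0.468 when TMM factors came from genes alone, 0.519 with total-count scaling, 0.17 with at least 100 counts in every library (20 members tested) and 0.633 without a filter (43 members). Leaving out 1 library gave between 0.0225 and 0.613, because Mmp3, Mmp10, Mmp13 and Adamts16 were no longer tested without either Top2β-null library (26 members) and Adamts8 was not tested without either wt library (29 members). The difference in the log2 ratio of MMP to TIMP (-0.0388) turned to 0.343 without division by exon length (exact permutation p = 0.33) and to 0.052 without Mmp14 and Timp2 (exact permutation p = 0.67), and leaving out 1 library gave between -0.058 and -0.0195.

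Over 28 members, 156 of the 159 values that could be fitted with all libraries kept, and 99 of 102 with 1 library left out, had the reported direction and side of the adjusted p of 0.05. The exceptions in this respect were Adamts5 (0.0329 with total counts, and between -0.0577 and 0.0079 when leaving out 1 library, with the sign turning without the first Top2β-null library), Mmp11 (0.114 with total counts), Timp2 (-0.0296 with total counts, and -0.0452 without the first Top2β-null library, adjusted p = 0.169) and Mmp17 (-0.64 without that library). Adamts12 (adjusted p = 0.0693 in the main fit) and Mmp21 (adjusted p = 0.336) were tested but were not among these 28 members. Scaling to the total count moved the median of all genes tested to 0.064. Beyond what is given here, the cause of these changes was not tested.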

Other observations

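Some genes that act with the matrix proteases belong to the plasminogen and proprotein convertase systems, which activate MMPs. The plasminogen activators Plat (log2 fold change 1.33, SE 0.0446) and Plau (1.09, SE 0.0347) were higher, as was Serpine2, an inhibitor of both, which had 50.5 and 58.9 normalized counts in wt and 4774 and 4804 in Top2β-null MEF cells. Pcsk6, a convertase, had a log2 fold change of -5.35 (SE 0.114), while Furin did not pass the test (adjusted p = 0.449). Plaur, the receptor of the Plau product, had a log2 fold change of -0.64 (SE 0.0247) and Bsg, an inducer of MMPs at the cell surface, one of -0.56 (SE 0.0273). Lrp1, a receptor that clears proteases from the cell surface, had a log2 fold change of 0.36 (SE 0.0285) at 119803 ± 1328 normalized counts in wt MEF cells (SD, n = 2).

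Of 14 other metalloproteinases, 11 were tested, of which 3 were called higher, against 5.52% of all genes tested, and 2 lower, against 5.25%. Mme, or neprilysin, had 157.5 and 160.3 normalized counts in wt and 5317 and 5538 in Top2β-null MEF cells. Tll1 and Bmp1, which both remove the carboxy-terminal propeptide of procollagens, moved apart with log2 fold changes of 1.69 (SE 0.0812) and -1.28 (SE 0.0282). Adam19 (1.03, SE 0.0435) was called higher and Adam8 (-2.18, SE 0.0612) lower, and the abundant sheddases Adam9 and Adam10 had log2 fold changes of 0.12 (SE 0.0252) and 0.55 (SE 0.0246). Of 7 ADAMTS-like genes, which lack the protease domain, 6 were tested and 2 were called lower, against 5.25% of all genes tested, namely Adamtsl5 (-3.71, SE 0.0534) and Thsd4 (-2.60, SE 0.199).

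Of 14 substrate genes, 12 were tested, of which 3 were called higher and 2 lower, against the same 5.52% and 5.25% of all genes tested. Vcan, the proteoglycan versican, had 8117 and 8559 normalized counts in wt and 67000 and 66815 in Top2β-null MEF cells. Thbs1 (log2 fold change 2.46, SE 0.0288) and Fbn2 (6.36, SE 0.0713) were also higher. Col1a1 (-1.38, SE 0.0308) and Col3a1 (-1.01, SE 0.0248) were lower, and Col1a2 did not pass the test (-0.04, adjusted p = 0.267). Fbn1 had a log2 fold change of -0.98 (SE 0.0249) and Fn1 one of -0.36 (SE 0.0314).

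Of other cell types, 4 endothelial markers summed to 164.5 and 162.3 normalized counts in wt, against 251.7 and 257.5 in Top2β-null MEF cells, with Kdr called higher (log2 fold change 1.54) and Tek at a log2 fold change of -2.54. The sum of 5 epithelial markers went from 71.7 and 71.5 in wt to 22.8 and 24.8 in Top2β-null MEF cells.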
